A study of Mus musculus with 3 samples.

Results

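The proteasome is the barrel-shaped protease that degrades proteins tagged with ubiquitin. Its core is built of rings of alpha subunits, which gate the entrance, and rings of beta subunits, some of which cut the substrate. A cap of ATPases and other subunits binds, unfolds and feeds in the substrate. In immune cells and in cells exposed to interferon, the catalytic subunits Psmb5, Psmb6 and Psmb7 are replaced by Psmb8, Psmb9 and Psmb10, and the resulting immunoproteasome makes peptides for class I antigen presentation. The genes described here are those named Psma, Psmb, Psmc, Psmd, Psme or Psmf with a number. They were taken by that pattern from the symbols of the array's probe sets, which are groups of probes for the same transcript, where a probe set had a single symbol. This gave 92 of 45101 probe sets, which measured 43 of 18193 named genes. A further probe set listed under 2 symbols, 1 of which matches, was left out.

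The probe sets were read on 3 Affymetrix arrays, each hybridised with RNA of whole mouse embryos collected 8.5 days post coitum (dpc). The mutant group was 2 arrays, named biological replicates by the labels, from pools of 8 and 6 litter mates of mixed sex. These embryos were Dnmt3l-/+, conceived by Dnmt3l-/- dams mated with wildtype sires, with a C57Bl/6J background, and the series describes them as deficient in maternal methylation. The Dnmt3l protein assists the enzymes that lay down new DNA methylation, and oocytes need it to establish maternal imprints. The normal group, C57Bl/6J embryos pooled from 6 litter mates of mixed sex, had 1 array and no replicate. Each value is therefore an average over a pool, and the number of arrays limits the precision of every value.

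Probe set medians were 130 and 140 on the mutant arrays and 144 on the normal array, in the authors' deposited signal units. The Dnmt3l probe set read 183 and 14.3 on the mutant arrays and 12.2 on the normal array, was too dim for the filter and did not check the labels, since the embryos carry a wildtype paternal allele. All 9 cardiac, 8 neural and 7 somite marker genes measured passed the filter on dim signal, but so did 6 of 7 decidual and 8 of 12 leukocyte and macrophage markers, so passing does not identify the tissue. Among the embryo's own markers, the cardiac actin gene Actc1 read 7144 and 10108 on the mutant arrays against 11002 on the normal array. Most of these markers fell further. Lower in both mutant arrays were 8 of 9 cardiac, 8 of 8 neural and 7 of 7 somite genes, beside 39.1% of all kept genes. Their median log2 ratios were -0.90, -0.79 and -0.85. Yolk sac endoderm markers stood apart between the groups. All 17 were higher in both mutant arrays, beside 36.5% of all kept genes. Their median log2 ratio was 2.68, and their summed signals were 141988 and 144952 on the mutant arrays against 25843 on the normal array.

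Log2 ratios below are mutant over normal on the scale log2(signal + 31.92), where 31.92 is the pseudocount, and they understate the change of dim genes. A gene is represented by its brightest probe set that passed a filter on dim signal. Of the 92 proteasome probe sets, 75 passed, and of the 43 genes, 39 had at least 1 that passed. The 17 probe sets removed read between 4.54 and 104 on all arrays. In bulk samples, fewer cells of a type and less RNA per cell cannot be told apart.

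Most proteasome transcripts were bright in both groups, with 35 of the 39 kept genes over 1000 on the normal array, and none passed the test for a difference. Among the 75 probe sets, limma called 0 higher and 0 lower at an adjusted p under 0.05, against 0.548% and 0.0296% of all 27022 kept probe sets. The lowest adjusted p among them was 0.301. At an unadjusted p under 0.05 (limma), 0 proteasome probe sets were higher and 5 were lower, against 6.7% higher and 6.86% lower of all kept probe sets. The 5 belonged to Psma6, Psma7, Psmc1, Psmc2 and Psmd6. Only those of Psma7 and Psmc1 were the brightest probe set of their gene. None of the 75 differed by 2-fold or more in both mutant arrays, against 4.47% of all kept probe sets.

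Over genes, 10 of the 39 were higher in both mutant arrays, which is 25.6% against 36.5% of all 12913 kept genes. Another 17 were lower in both, which is 43.6% against 39.1% of all kept genes, and 12 differed in sign between the mutant arrays. The median log2 ratio was -0.064 (0.0041 on mutant array 1 and -0.10 on mutant array 2), beside -0.019 over all kept genes. The extremes were Psma7 at -0.75 and Psme3 at 0.62. Of the 39 genes, 36 lay within 0.5 of 0 on the log2 scale, beside 77.6% of all kept genes. Proteasome genes are bright, and 32 of them had a mean log2 level of 11 or more. Among all 2193 kept genes that bright, 86.7% lay within 0.5 of 0, 33.4% were higher in both mutant arrays and 44.6% were lower in both. Of the 32 proteasome genes at that level, 29 lay within 0.5 of 0 (90.6%), 8 were higher in both and 15 were lower in both. The level was chosen after the data were seen. For the class and list counts below, the shares over all kept genes are the same 36.5% and 39.1%.

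**Figure D1:**
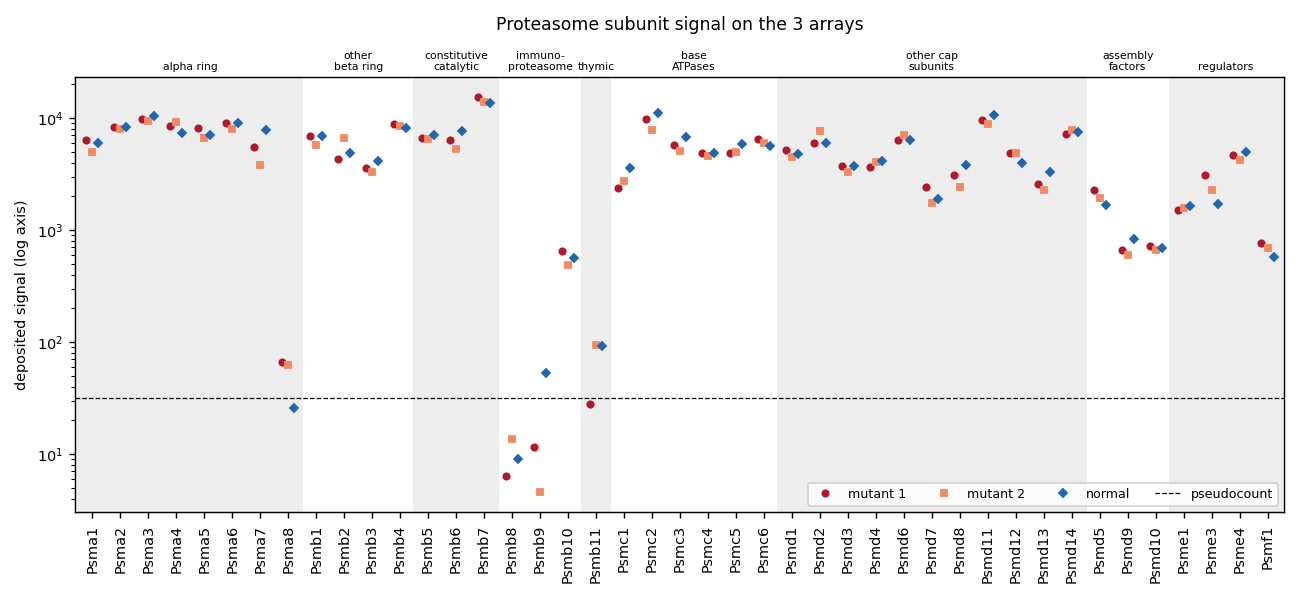
Deposited signal (log axis) of the brightest probe set of each of the 43 proteasome genes on mutant array 1, mutant array 2 and the normal array, grouped by the place of the subunit in the complex. The dashed line is the pseudocount of 31.92. Psma8, Psmb8, Psmb9 and Psmb11 read no higher than 94.3 on any array, and the other 39 genes lie well above the line. For most of these the 3 arrays lie close together, while Psma7 spans 3811 to 7767.

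A p above the threshold does not show that levels were alike, so the 95% interval of each log2 ratio (limma, 5.52 degrees of freedom) was computed. The normal group was 1 array, so these intervals hold no measured spread between normal pools. The median interval reached 0.45 to either side of its estimate. For 35 of the 39 genes the interval lay wholly within a 2-fold change in either direction, and the other 4 were Psma7, Psmc1, Psmd8 and Psme3. For 2 genes, Psma7 and Psmc1, it did not hold 0 before adjustment for the number of probe sets tested. The difference between the 2 mutant arrays was larger than the mean change from the normal array in 18 of the 39 genes. The median size of the difference between mutant arrays was 0.15, and that of the change from the normal array was 0.14.

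**Figure D2:**
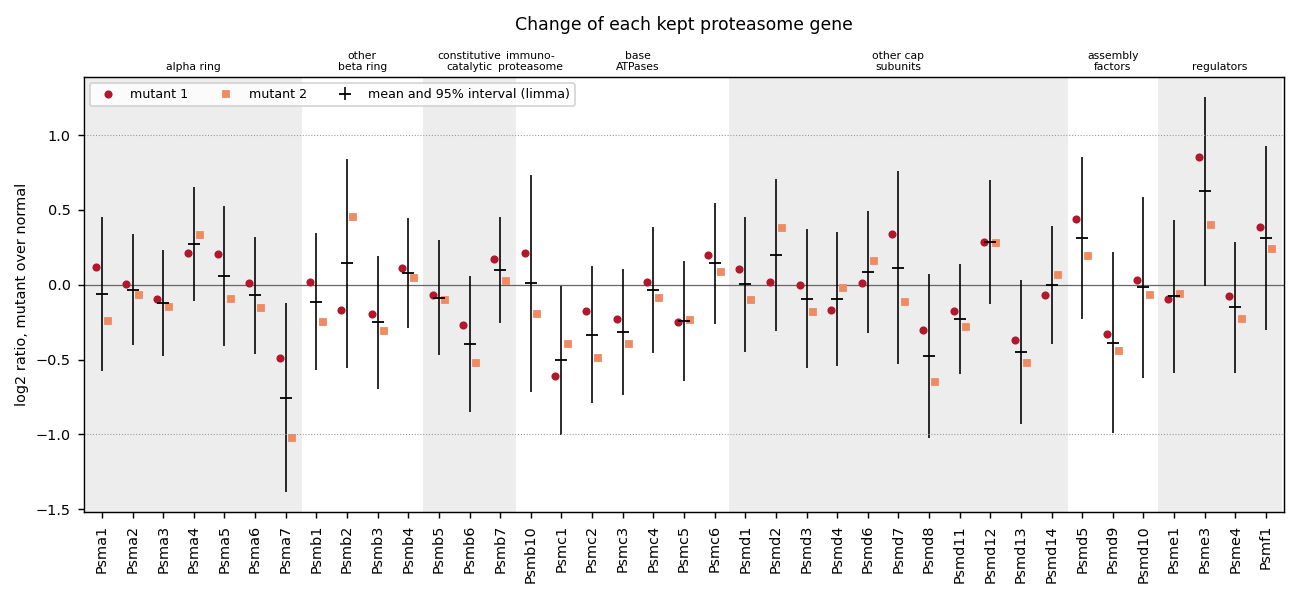
Log2 ratio of each of the 39 kept proteasome genes, mutant over normal, with 1 point for each mutant array and the mean with its 95% interval from limma. Dotted lines mark a 2-fold change. Most intervals hold 0, those of Psma7 (-1.39 to -0.12) and Psmc1 (upper end -0.0085) do not, and neither gene passed after adjustment over all probe sets.

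The alpha ring was represented by 7 kept genes, of which 1 was higher in both mutant arrays, 2 were lower in both and 4 differed in sign. Psma7 read 5532 and 3811 on the mutant arrays against 7767 on the normal array. Both mutant arrays lay below the normal array, and mutant array 2 was the lower of them. Its log2 ratio was -0.75 (SE 0.25, limma adjusted p = 0.301), and its other probe set gave -0.40. Psma3, the gene of another alpha subunit, had the highest signal of the class, with 9825 and 9471 in the mutants against 10509 in the normal pool (log2 ratio -0.12, SE 0.14). Psma4 was the one alpha subunit gene higher in both mutant arrays, with 8474 and 9218 against 7310 (log2 ratio 0.27, SE 0.15, limma adjusted p = 0.509). Psma1, Psma2, Psma5 and Psma6 had log2 ratios between -0.071 and 0.057. Dimmer kept probe sets of Psma1 gave -0.55 and 0.29. A dim probe set of Psma6, at 256 and 274 against 468, gave -0.75 (limma unadjusted p = 0.037), while its second bright one gave -0.079. Psma8, an alpha subunit gene used mainly in the testis, was removed by the filter, with 65.9 and 62.3 in the mutants and 25.6 in the normal pool.

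Among the beta subunits without a catalytic site, none passed. Psmb4 read 8824 and 8411 in the mutants against 8163 in the normal pool (log2 ratio 0.077, SE 0.15), although its dimmer probe set gave -0.45. Psmb3 read 3575 and 3300 against 4097, so that both mutant arrays lay below the normal array (log2 ratio -0.25, SE 0.18). Psmb1 had a log2 ratio of -0.11. Psmb2 gave 0.14 with the widest gap between replicates among the probe sets that represent their genes. It read 4291 on mutant array 1 and 6618 on mutant array 2 around 4827 on the normal array.

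The constitutive catalytic subunits were bright on every array and 0 of 3 passed (limma). Psmb5, which carries the chymotrypsin-like site, read 6684 and 6515 in the mutants against 7004 in the normal pool. Its log2 ratio was -0.086 (SE 0.15), with a 95% interval from -0.47 to 0.30. Psmb6, which carries the caspase-like site, read 6319 and 5275 against 7608, and both mutant arrays were below the normal one. Its log2 ratio was -0.40 (SE 0.18, limma adjusted p = 0.426). Psmb7, which carries the trypsin-like site, had 15528 and 13977 in the mutants against 13750 in the normal pool, a log2 ratio of 0.099 (SE 0.14).

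Of their immunoproteasome counterparts only Psmb10 passed the filter, and its mutant values lay on both sides of the normal one. Psmb10, which takes the place of Psmb7, read 653 and 486 in the mutants against 560 in the normal pool (log2 ratio 0.0083, SE 0.29, 95% interval -0.71 to 0.73). Psmb8, which takes the place of Psmb5, was measured by a pair of probe sets that read 9.36 and 8.65, and 6.35 and 13.7, in the mutants, against 8.07 and 8.95 in the normal pool. All 6 values lay below the pseudocount. Psmb9, which takes the place of Psmb6, read 11.5 and 4.54 in the mutants against 52.5 in the normal pool. No ratio is given for these genes, because such signals have no reliable order. Psmb11, the catalytic subunit of the thymus, read 28.3 and 94.3 in the mutants against 92.6 in the normal pool. At this brightness an immunoproteasome change was not measurable for Psmb8 and Psmb9.

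The base of the cap is a ring of ATPases that unfold substrates. Of the 6 genes, 4 were lower in both mutant arrays and 1 was higher in both, beside 39.1% and 36.5% of all kept genes. In the limma fit 0 passed. The class had the lowest median log2 ratio of the complex's classes, at -0.28 (-0.20 on mutant array 1 and -0.32 on mutant array 2). Psmc1 read 2351 and 2733 in the mutants against 3610 in the normal pool, a log2 ratio of -0.50 (SE 0.20, limma adjusted p = 0.364). Both mutant arrays were low for this gene. Psmc2, the brightest of the class, had 9774 and 7854 against 11056 (log2 ratio -0.33, SE 0.18). That value came from an _x_at probe set, whose probes can also match other transcripts. A second bright probe set of Psmc2 gave -0.041, and a dim one, at 122 and 68.2 against 237, gave -1.11. Psmc3 (-0.31) and Psmc5 (-0.24) were also lower in both mutant arrays. Psmc6 was the gene higher in both, with 6524 and 6009 against 5670 (log2 ratio 0.14, SE 0.16). Psmc4 gave -0.036.

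The other cap subunits hold the substrate receptors and the deubiquitinase. Of 11 genes, 3 were higher in both mutant arrays, 5 were lower in both and 3 differed in sign, with a median log2 ratio of -0.0042. Psmd14, the deubiquitinase of the cap, read 7144 and 7848 in the mutants around 7509 in the normal pool (log2 ratio -0.0042, SE 0.16). Psmd4, a ubiquitin receptor, had 3672 and 4065 against 4130 (log2 ratio -0.095, SE 0.18). The large scaffold genes Psmd1 and Psmd2 gave 0.0015 and 0.20. Of these, Psmd14 and Psmd1 had their mutant values on both sides of the normal one.

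Among these 11 genes without the ATPases, the lowest values were those of Psmd8 and Psmd13, both structural subunits of the lid. Psmd8 read 3089 and 2425 in the mutants against 3820 in the normal pool (log2 ratio -0.48, SE 0.22, limma adjusted p = 0.429). Psmd13 had 2564 and 2299 against 3325 (log2 ratio -0.45, SE 0.19, limma adjusted p = 0.397). Both mutant arrays were below the normal array for each gene, but dim Psmd13 probe sets disagreed, at 0.29 and -0.41. Psmd11, which had the highest signal of these subunits, gave -0.23 (SE 0.15), and its other kept probe sets ran between -0.37 and 0.31. The highest value was that of Psmd12, at 4877 and 4866 against 3998 (log2 ratio 0.28, SE 0.17), where the mutant arrays were nearly equal. Psmd3 (-0.093), Psmd6 (0.086) and Psmd7 (0.11) lay closer to 0. A second bright probe set of Psmd6 gave -0.48 and a dim one of Psmd7 gave -0.60, the opposite sign.

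Factors that help assemble the base and are not part of the finished proteasome differed in sign, and 0 of 3 passed (limma). Psmd5 read 2276 and 1916 in the mutants against 1674 in the normal pool (log2 ratio 0.31, SE 0.22). Psmd9 read 657 and 604 against 833 (log2 ratio -0.39, SE 0.24), and Psmd10, also called gankyrin, gave -0.017. Of the 5 chaperones that assemble the core, from a list of other pathway genes, 3 were lower in both mutant arrays, 1 was higher in both and 0 passed. They ran from Psmg3 at -0.30 to Psmg4 at 0.21. Pomp, the maturation factor of the core, read 6215 and 6894 in the mutants against 7838 in the normal pool (log2 ratio -0.26, SE 0.16).

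The alternative regulators of the core held the highest log2 ratio of all 39 genes. Psme3, which encodes the proteasome activator of the nucleus, read 3121 and 2274 in the mutants against 1717 in the normal pool. Both mutant arrays were above the normal array and mutant array 1 was the higher. Its log2 ratio was 0.62 (SE 0.25, 95% interval -0.0073 to 1.26, limma adjusted p = 0.372), and its dimmer kept probe set gave 0.12. Psme1, an interferon-inducible activator subunit, read 1523 and 1560 against 1629 (log2 ratio -0.078, SE 0.21). Psme2 is not among the 39 genes, because its probe set is also listed under Psme2b. That probe set read 992 and 856 in the mutants against 1217 in the normal pool (log2 ratio -0.39, SE 0.24, limma adjusted p = 0.541). Psme4, a large activator, gave -0.15 (SE 0.17), and its other kept probe sets ran between -0.69 and 0.22. Psmf1, an inhibitor of the proteasome, read 766 and 690 in the mutants against 580 in the normal pool (log2 ratio 0.31, SE 0.25), and all 4 of its probe sets were above 0.

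Probe sets of the same gene did not always have the same sign. Of 20 genes with more than 1 kept probe set, 9 had probe sets of opposite sign. The median log2 ratio was -0.064 for the 39 that represent their genes and -0.19 for the other 36 kept probe sets, with 18 lower and 6 higher in both mutant arrays. Kept proteasome probe sets that read under 500 on every array numbered 18 and had a median of -0.43, beside -0.11 over all 13995 kept probe sets that dim. Of the 75, 11 carry the suffix _x_at or _s_at, which in this array's naming marks probes that can also match other transcripts, so part of their signal may come from related sequences.

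**Figure D3:**
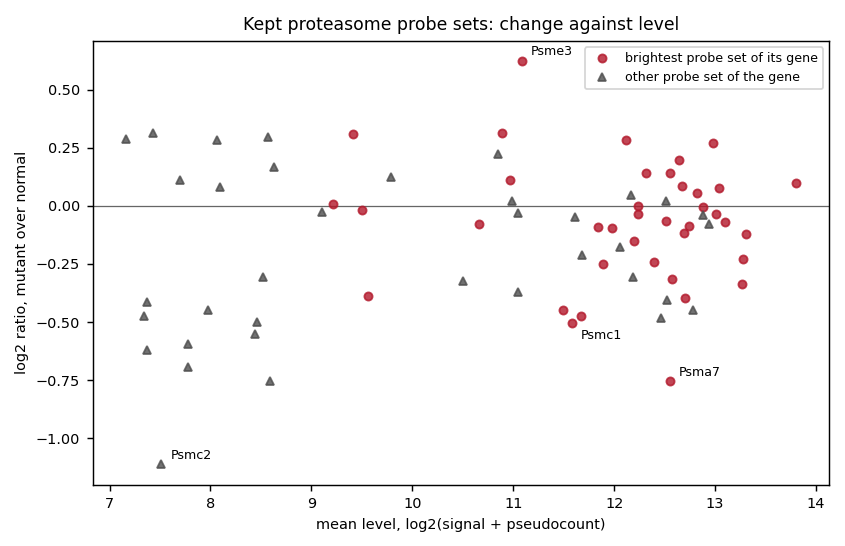
Log2 ratio, mutant over normal, against mean level, log2(signal + 31.92), for the 75 kept proteasome probe sets. Circles are the brightest probe set of each of the 39 genes and triangles the other 36, which include the lowest value of all, the dim Psmc2 probe set at -1.11.

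Transcription of proteasome genes is known to be raised by Nfe2l1, and under oxidative stress by Nfe2l2, bound with small Maf partners to the antioxidant response element. RefSeq promoters (GRCm38.p6, from 250 bases before to 50 after each start) were found for 36 of the 43 genes. The element TGACNNNGC, searched on both strands, was in the promoters of 6 of these 36 genes (16.7%), beside 14.0% of 27025 genes. The 6 were Psmb5, Psmb6, Psmc6, Psmd9, Psmd12 and Psme4. The stretches that lie wholly upstream of the start are shown because Nfe2l2 had the highest log2 ratio of the kept pathway genes after Maf. Maf encodes a large Maf factor, not a small partner. Binding of Nfe2l2 to these stretches was not tested. Capitals mark the match, which overlaps no other element searched here, and each is written along the strand of its gene.
Psmb5 (chr14:54618009-54618067, minus strand): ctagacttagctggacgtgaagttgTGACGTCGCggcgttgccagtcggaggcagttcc
Psmb6 (chr11:70525323-70525356, plus strand): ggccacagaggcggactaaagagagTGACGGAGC
Psmd9 (chr5:123228134-123228189, plus strand): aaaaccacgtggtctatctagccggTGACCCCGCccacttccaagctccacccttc
Psmc6 (chr14:45329574-45329630, plus strand): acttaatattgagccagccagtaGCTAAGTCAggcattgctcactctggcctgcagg
Psmd12 (chr11:107479278-107479314, plus strand): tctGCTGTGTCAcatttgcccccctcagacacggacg
In Psmb5, Psmb6 and Psmd9 the element reads along the gene's strand, 47, 9 and 31 bases before the start. In Psmc6 and Psmd12 it reads on the opposite strand. The log2 ratios of the 6 genes with a match were mixed in sign, from -0.40 for Psmb6 and -0.39 for Psmd9 to 0.28 for Psmd12.

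The list of transcriptional control genes was the pathway list with the highest median. It included Maf, which is not a small Maf partner and had the list's highest log2 ratio. The counts and median of the list include this gene. Of 6 genes, 5 were higher in both mutant arrays and 0 were lower in both, beside 36.5% and 39.1% of all kept genes. Over all probe sets, 0 of the 6 passed (limma). At an unadjusted p under 0.05 (limma) 4 were higher and 0 lower, against 8.01% and 4.24% of all kept genes. Their median log2 ratio was 0.97. Nfe2l2 read 2466 and 2140 in the mutants against 825 in the normal pool, a log2 ratio of 1.44 (SE 0.22, limma adjusted p = 0.0779). Maf, a large Maf factor, had 1317 and 1464 against 424, a log2 ratio of 1.64 (SE 0.23, limma adjusted p = 0.0677), and its other 3 kept probe sets gave between 0.60 and 1.30. For both genes the mutant arrays were close to each other and far above the normal array. With median centring of the arrays Maf passed (limma adjusted p = 0.0388). That setting called more probe sets of the whole array, 263 higher and 24 lower, against 148 and 8 in the main fit.

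Mafk, a small Maf partner, read 477 and 447 in the mutants against 207 in the normal pool (log2 ratio 1.05, SE 0.27, limma adjusted p = 0.211). Ngly1, the deglycosylase that helps activate Nfe2l1, had 586 and 674 against 323 (log2 ratio 0.90, SE 0.26, limma adjusted p = 0.248). Nfe2l1 itself gave 0.29 (SE 0.21), and Mafg gave -0.060. Yolk sac endoderm markers were higher in the same arrays (17 of 17, median 2.68), as were embryonic erythroid markers (10 of 10 kept of 11 measured, median 1.90) and trophoblast markers (3 of 3 kept of 5 measured, median 1.76). The other trophoblast markers, Ascl2 and Tpbpa, were removed by the filter. All 3 Tpbpa probe sets read lower in the mutants, the brightest at 32.8 and 23.3 against 180 in the normal pool. The part of these tissues in the higher Nfe2l2 and Maf signals was not tested. The log2 ratios of the 39 proteasome genes, from -0.75 to 0.62, lay below those of all 17 yolk sac markers, which began at 1.44.

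**Figure D4:**
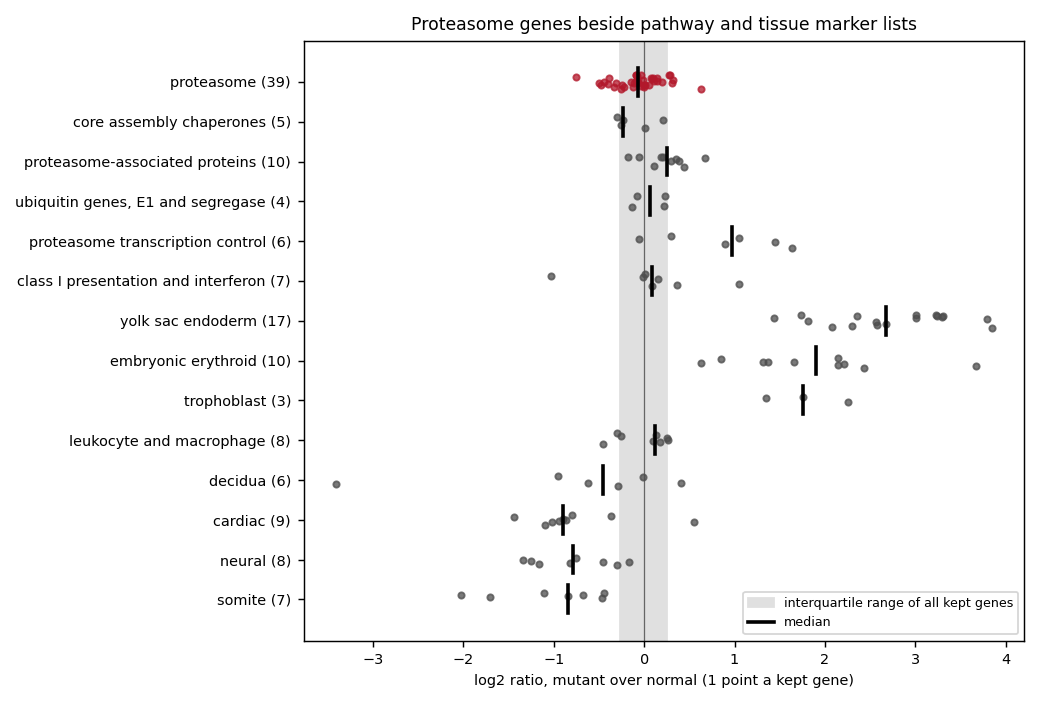
Log2 ratio, mutant over normal, of the 39 kept proteasome genes (top row) and of the pathway and tissue marker lists, with 1 point for each kept gene and a bar at each median. The grey band is the interquartile range of all kept genes (-0.27 to 0.25), and the proteasome median of -0.064 lies inside it while the yolk sac endoderm median of 2.68 and the cardiac median of -0.90 lie outside.

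Proteins that dock on the proteasome were higher in both mutant arrays for 8 of 10 genes and lower for 1, beside 36.5% and 39.1% of all kept genes, and 0 passed (limma). Their median log2 ratio was 0.25 (0.36 on mutant array 1 and 0.15 on mutant array 2). With the mean of each gene's probe sets, an alternative chosen after the data were seen, 4 of the 10 were higher in both arrays and the median was 0.0050. Ecpas, a scaffold that clamps core and cap together, had 802 and 566 in the mutants against 412 in the normal pool (log2 ratio 0.67, SE 0.30), and its other kept probe sets gave 0.028 and 0.85. Usp14, a deubiquitinase that docks on the cap, read 4070 and 3808 against 3017 (log2 ratio 0.38, SE 0.18, limma adjusted p = 0.431). Ube3c, a ubiquitin ligase of the proteasome, gave 0.44, and Rad23b, which shuttles substrates to it, gave 0.35. Usp14, Ube3c and Rad23b each had dimmer probe sets of both signs. Of 4 genes measured for ubiquitin activation and segregation, 2 were higher and 2 lower in both mutant arrays. Vcp, the segregase that extracts substrates from membranes and complexes, read 12734 and 13160 against 14181 (log2 ratio -0.13, SE 0.13).

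Genes of class I presentation and interferon signalling, with which Psmb8, Psmb9 and Psmb10 are induced, were mostly dim. Of 12 measured, 5 were removed by the filter, among them Tap1 and Tap2, the peptide transporter genes that neighbour Psmb8 and Psmb9. Of the 4 Tap1 probe sets, the brightest in the mutants read 55.3 and 74.6 there against 44.0 in the normal pool. The one brightest in the normal pool read 38.1 and 64.1 in the mutants against 57.3. Irf1, an interferon response factor, read 396 and 408 in the mutants against 406 in the normal pool (log2 ratio -0.013, SE 0.26). B2m, the light chain of class I molecules, read 1895 and 2445 against 1021 (log2 ratio 1.05, SE 0.24, limma adjusted p = 0.181), while Tapbp, which loads them, read 146 and 132 against 317 (log2 ratio -1.03, SE 0.31, limma adjusted p = 0.257). For both genes the mutant arrays lay together on the same side of the normal array, and neither passed. The leukocyte markers Ptprc, Aif1, Tyrobp and Cd52 were removed by the filter, and the 8 kept leukocyte and macrophage markers summed to 1416 and 1687 in the mutants against 1520 in the normal pool, with 3 higher and 3 lower in both mutant arrays.

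Interferon-linked elements were searched in the same promoters, on both strands. The gamma-activated site TTCNNNGAA was in 2 of the 36 genes' promoters (5.56%), beside 9.55% of all 27025 genes, and the pair was Psmb8 and Psmd2. The interferon-stimulated element, GAAANN followed directly by GAAA, was in 4 (11.1%), beside 3.99% of all genes, and these were Psmb3, Psmd4, Psmd9 and Psme1. The Psmb8 match is shown because Psmb8 is an immunoproteasome gene, and it begins 97 bases before the start.
Psmb8 (chr17:34198073-34198131, plus strand): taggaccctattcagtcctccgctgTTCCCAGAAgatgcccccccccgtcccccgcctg
The genes with an interferon-stimulated element had log2 ratios of -0.25 (Psmb3), -0.095 (Psmd4), -0.39 (Psmd9) and -0.078 (Psme1), and none of them passed (limma).

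As a comparison with other large complexes of every cell, the median log2 ratio was -0.15 over 43 kept genes of cytosolic ribosomal proteins and 0.016 over 59 kept genes of the respiratory chain. The proteasome median of -0.064 lay between them, and the 3 medians were not tested against each other.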

How the data were processed

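Total RNA was isolated with Trizol and labelled with biotin for Affymetrix arrays, per the labels' protocols. The authors deposited linear intensity values, for which the tools GCOS and MAS5 are listed in the submitters' processing notes with no settings. All arrays shared a 2% trimmed mean of 500, so they had been scaled alike, which assumes equal total signal. The genome build is not given in the sources used here. Of the 45037 probe sets left after 64 controls, 34945 had 1 symbol, 932 had several and 9160 had none.

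Signals were turned into log2(signal + 31.92), the pseudocount being the median over arrays of the 20th percentile. Probe sets at or above the 40th percentile of the mean of group means were kept (27022). Limma 3.58.1 (R 4.3.3) was fitted to all of them, mutant minus normal, with lmFit and eBayes with a trend, two-sided, and Benjamini-Hochberg adjustment, threshold 0.05. The mutant arrays gave the 1 residual degree of freedom, beside 4.52 prior ones, so the spread of normal pools was taken from mutant pools. All adjusted p-values are from this fit. Its code was run on simulated data with changes larger than that of any kept proteasome probe set. It missed some of these and called some unchanged probe sets, so this says nothing about its power for smaller changes.

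The members and lists were chosen with earlier results of these data known. Marker lists were yolk sac endoderm, embryonic erythroid, trophoblast, decidua, leukocyte and macrophage, cardiac, neural and somite. Named were all catalytic subunits, immunoproteasome subunits and regulators, in other classes up to 3 genes in each direction by the less changed mutant array plus the brightest, and up to 4 genes of each other list. Genes outside that rule were named after their values were seen.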

Additional observations from a re-analysis of the deposited data

How the results depend on the processing

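No proteasome probe set passed under any of the 8 alternatives to the fit (pseudocounts of 15.96 and 63.84, no filter, a filter at the 60th percentile, median centring, quantile normalization, cyclic loess and no variance trend). At an unadjusted p under 0.05 these gave 0 or 1 higher and 1 to 5 lower (limma), and the lowest adjusted p was 0.277. Without the filter or without the trend no probe set of the whole array passed, so there the 0 calls say nothing about the proteasome. The count of genes lower in both mutant arrays was 11 with median centring, against 17 as reported. With mutant replicate 1 or 2 left out, which gives values with no test, 12 to 20 genes were higher and 19 to 27 lower, and the median log2 ratio ran from -0.10 to 0.0041. The median was 0.011 with median centring. Among fits with a test, signs turned for 10 of 71 proteasome and pathway genes, all within 0.071 of 0. With median centring these were Psma1 (0.011), Psma2 (0.042), Psma6 (0.0040), Psmc4 (0.039), Psmd10 (0.058), Psmd14 (0.071), Akirin2 (0.014), Irf1 (0.062) and Mafg (0.015). With quantile normalization they were Psma2 (0.0025), Psmd1 (-0.0040), Psmd14 (0.042) and Irf1 (0.022), and with cyclic loess Psma2 (0.0097), Psmd14 (0.035) and Irf1 (0.028). With the mean of each gene's probe sets, a value with no test, 8 proteasome genes were higher and 22 lower in both mutant arrays, and Psmb4 (-0.19), Psmd6 (-0.20), Psmd7 (-0.24), Rad23b (-0.26), Ube3c (-0.019), Sem1 (-0.020), Uba6 (-0.39) and Ufd1 (0.015) turned sign. The ubiquitin activation and segregation genes then had 1 of 4 higher and a median of -0.18, against 2 of 4 and 0.070. The adjusted p of Nfe2l2 ran from 0.0581 to 0.213 and that of Maf from 0.0388 to 0.193. No paired analysis was possible because the normal group is 1 array whose label has no replicate number. Dim signal limits Psmb8, Psmb9, Psmb11 and Psma8, for which no change could be measured.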

Other observations

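Of the heart, neural, somite and decidual markers, 1 gene passed (limma). Heart markers were lower in both mutant arrays for 8 of 9 genes (median log2 ratio -0.90), neural markers for 8 of 8 (median -0.79) and somite markers for 7 of 7 (median -0.85). Of all kept genes, 39.1% were lower in both. The heart marker Gata4 was higher in both (0.56). Decidual markers were lower in both mutant arrays for 4 of 6 kept genes (median -0.45), while Wnt4 was higher in both (0.40) and Cryab differed in sign. The gene that passed was Prl8a2, a prolactin-family gene of the decidua (log2 ratio -3.41, limma adjusted p = 0.0212).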
